A study of Mus musculus with 5 samples.

Results

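The transcripts of 9 genes that write, erase or read N6-methyladenosine (m6A) were followed in mouse 2-cell embryos exposed to PNMC. They were Mettl3, Mettl14, Wtap, Alkbh5, Fto, Ythdc1, Ythdc2, Ythdf1 and Ythdf3, taken by gene symbol from a table of 32285 symbols, and all 9 were found in it. The control group was 2 libraries of embryos cultured for 24 h in KSOM medium with DMSO, and the PNMC group was 3 libraries of embryos cultured for the same time in KSOM with 25 nM PNMC. Both groups came from oocytes of superovulated females aged 6 to 9 weeks, fertilised in vitro for about 6 h with sperm of males aged 12 to 16 weeks. The labels name no strain, do not say how many embryos made a library, and do not say whether libraries came from separate cultures. The p-values therefore measure the spread among these 5 libraries only, and part or all of that spread may be technical. The abbreviation PNMC is not spelled out in the labels.

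N6-methyladenosine is the most common internal modification of messenger RNA. A nuclear complex built on METTL3, the catalytic subunit, and METTL14, its RNA-binding partner, writes the mark, and WTAP anchors the pair in nuclear speckles. The demethylases FTO and ALKBH5 remove it. Proteins with a YTH domain bind it: YTHDC1 in the nucleus, where it acts on splicing, export and chromatin, YTHDC2 as an RNA helicase needed for meiosis, and the YTHDF proteins in the cytoplasm, where they act on mRNA decay and translation. In the early embryo the mark is known for its part in the turnover of maternal mRNA while the embryonic genome switches on.

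The libraries carried the transcripts of their stage. All 6 markers of the 2-cell programme, such as Zscan4d and Zfp352, were above 1 in every library, with summed values from 720 to 860, and all 8 oocyte and maternal markers were too. Of 11 markers of cumulus and granulosa cells, Ptx3, Foxl2, Inhba, Pgr and Amh were listed at 0 in all libraries and the summed values were 4.92 to 8.16. Among the others, Cyp19a1 was above 1 in every library, at 3.958 and 2.459 in the controls and at 3.366, 4.026 and 2.687 after PNMC. Tnfaip6 reached 2.621 in control library 2. Of 7 sperm markers, Prm1, Tnp2 and Smcp were listed at 0 throughout and the sums were 4.22 to 6.89. Most of each sum was Prm2, at 3.909 and 4.025 in the controls and at 5.189, 5.793 and 4.544 after PNMC. Prm2 thus lay above both controls in all PNMC libraries, while the sums overlapped. Summed blood markers were 9.61 and 11.2 in controls and 6.19 to 8.43 after PNMC, and summed oocyte markers were 13240 and 13670 against 14400 to 14790, so these 2 marker sums did not overlap between the groups. Neither sum stayed apart without its leading marker. Without Tcl1 the other 7 oocyte markers summed to 7597 and 8138 against 7797 to 8342. Without Hba-a1 the other 4 blood markers summed to 2.45 and 2.88 against 0.342 to 3.53. Hba-a1 itself also overlapped, at 7.16 and 8.29 in the controls and at 4.57, 8.09 and 5.77 after PNMC. Of the single oocyte markers, Tcl1 and Dppa3 lay above and Zp3 lay below both controls in all PNMC libraries, and no single blood marker was apart. Control library 2 listed 18595 genes above 0, against 17408 to 17635 in the other libraries.

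No m6A gene passed the test for a change with the exposure. Of the 9 genes, 8 reached a value of 1 in 2 or more libraries and were tested, and Ythdc2 was below that level. None of the 8 passed limma's test at an adjusted p of 0.05, where the share of all 12734 tested genes that passed was 0%, and none had an unadjusted p under 0.05, where the share was 4.99%. The adjusted p was 0.993 for each of the 8. In such bulk libraries fewer cells with a transcript and less of it per cell cannot be told apart. In the deposited values, without scaling, Alkbh5 was the only one of the 8 whose PNMC values all lay outside the control values. That is 12.5%, against 19.9% of all tested genes. Estimated changes were lower after PNMC for 6 and higher for 2, with a median of -0.09 in log2(value + 1), and 56.9% of all tested genes were lower, with a median of -0.05. The direction counts depended on the scaling, since 4 of the 8 were lower under quantile normalisation or median scaling, where 50.3% and 46.1% of all tested genes were lower.

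The levels of the 9 genes were far apart, and Wtap was the highest. Over the 5 libraries Wtap averaged 299.5, Ythdf3 52.9, Mettl3 51.7, Alkbh5 12.9, Ythdc1 7.89, Fto 3.15, Mettl14 1.82, Ythdf1 1.20 and Ythdc2 0.507. Wtap lay apart from Ythdf3, Mettl3 from Alkbh5 and Ythdc1 from Fto, with no overlap over the 5 libraries. The ranges of Ythdf3 and Mettl3 overlapped, as did those of Alkbh5 and Ythdc1, and so did each neighbouring pair from Fto down to Ythdc2. These are orders of the deposited values, whose unit is not stated. In genes listed above 0 in a single library the median value fell from 0.342 for annotated lengths under 500 bases to 0.115 for lengths over 4000, so values fell with length, but how far they were scaled by it could not be settled. If the values were not scaled by length, dividing by transcript length would swap Mettl3 with Ythdf3 and Ythdc1 with Alkbh5 and leave the other places as they are.

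**Figure D1:**
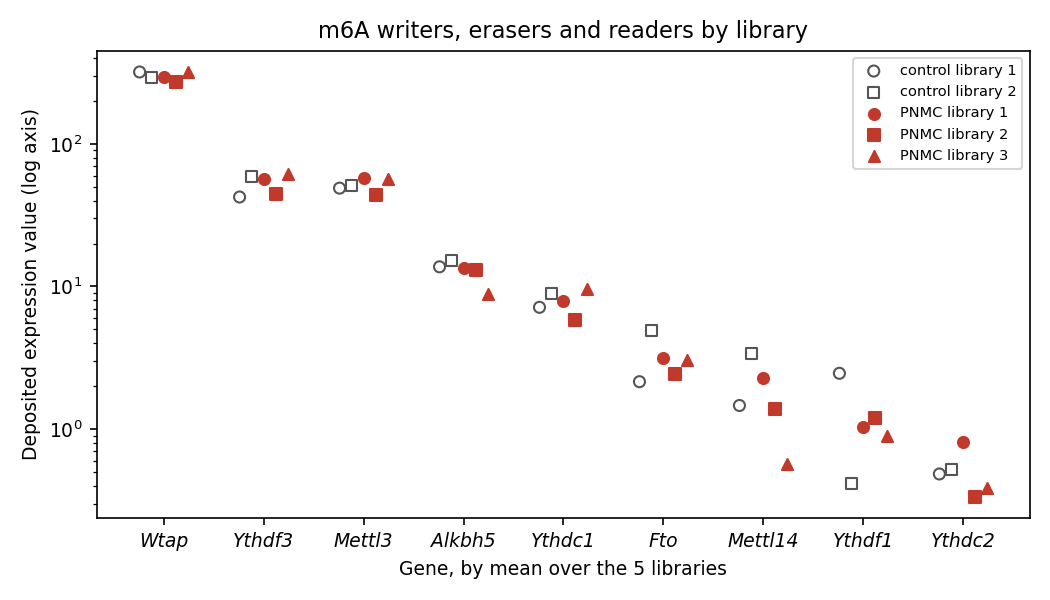
Deposited expression values (vertical, log axis) of the 9 genes (horizontal, ordered by mean) in each of the 5 libraries; open grey symbols are the 2 controls and filled red symbols the 3 PNMC libraries. Wtap stands alone near 299.5, and the control and PNMC symbols are mixed in every gene but Alkbh5, where all 3 PNMC values lie below both controls.

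Among the writers, Mettl3, the catalytic subunit, was at 49.0 and 51.5 in the controls and at 57.8, 43.9 and 56.3 in PNMC libraries 1, 2 and 3. The PNMC values lay on both sides of the controls. Its change was 0.06 (SE 0.179, 95% interval -0.33 to 0.44, limma adjusted p = 0.993). Mettl3 shares 933 of its 5076 annotated exon bases, or 18.4%, with Tox4 on the opposite strand, and the library method keeps no strand, so reads there could belong to either gene. Tox4 itself was at 57.0 and 40.6 in the controls and at 38.3, 54.7 and 45.6 after PNMC.

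Mettl14, the partner that completes the RNA-binding surface, was much lower than Mettl3. It was at 1.46 and 3.40 in the controls and at 2.28, 1.37 and 0.572 after PNMC. The 2 controls differed from each other by more than the group means did, and PNMC library 3 was the lowest of all. The change of -0.51 (SE 0.434, 95% interval -1.45 to 0.42, limma adjusted p = 0.993) did not pass the test. It was -0.93 without control library 1, -0.10 without control library 2, -0.24 without PNMC library 3 and -0.81 with a pseudocount of 0.1. The ratio of Mettl3 to Mettl14 values ran from 15.2 in control library 2 to 98.5 in PNMC library 3, and the other libraries lay at 25.3, 32.0 and 33.4.

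Wtap, the speckle anchor of the complex, was at 319 and 293 in the controls and at 297, 272 and 317 after PNMC. All 5 values lay close together, and the highest and the lowest belonged to different groups without separating them. Its change of -0.05 had the narrowest interval of the 8 (SE 0.12, 95% interval -0.31 to 0.20, limma adjusted p = 0.993). Wtap stood higher than 98.7% of all tested genes in mean log2 value and made up 67.0% to 72.9% of the summed values of the 9 genes. Of the stretches of 50 bases in its transcript, 18.1% also occur in 4 other annotated genes, all processed pseudogenes and led by Gm14292. None of the 4 names is a row of the table, so how reads from those stretches were counted is not known.

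Both erasers were lower than the leading writers. Alkbh5, a nuclear demethylase known for its role in male fertility, was at 13.7 and 15.1 in the controls and at 13.4, 13.1 and 8.90 after PNMC. The groups did not overlap in the deposited values, but PNMC library 1 lay just under control library 1 and only PNMC library 3 was clearly apart. Whether the groups stay apart after scaling was not computed. The change was -0.29 (SE 0.252, 95% interval -0.83 to 0.26, limma adjusted p = 0.993). Leaving out PNMC library 3 brought the change to -0.11. Fto, the other demethylase, was at 2.15 and 4.95 in the controls and at 3.14, 2.43 and 3.07 after PNMC. The 2 controls enclosed all PNMC values. The change was -0.16 (SE 0.366, 95% interval -0.95 to 0.62, limma adjusted p = 0.993), and without control library 2 it turned to 0.29.

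The nuclear reader Ythdc1 was at 7.15 and 8.96 in the controls and at 7.92, 5.80 and 9.63 after PNMC. Its highest and its lowest value were both in PNMC libraries. The change was -0.06 (SE 0.287, 95% interval -0.68 to 0.56, limma adjusted p = 0.993), a direction that flipped under quantile normalisation and median scaling. Of the stretches of 50 bases in its transcript, 20.1% also belong to Gm43055, a long noncoding gene annotated on the same strand that is not a row of the table. Ythdc2, the helicase, was the lowest of the 9 genes at 0.484 and 0.521 in the controls and at 0.806, 0.336 and 0.388 after PNMC. It stayed under 1 in every library. The PNMC values spanned those of both controls, and no test is given for it.

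The cytoplasmic readers Ythdf1 and Ythdf3 are paralogues whose values differed widely. Their coding sequences are 1758 and 1788 bases long, and their annotated transcripts 2272 and 4929 bases. Ythdf3 was at 42.4 and 59.2 in the controls and at 56.5, 44.5 and 61.7 after PNMC. Control library 1 was the lowest of the 5 and control library 2 was second to PNMC library 3. Ythdf1 was at 2.46 and 0.416 in the controls and at 1.03, 1.19 and 0.901 after PNMC, so that the controls again enclosed every PNMC value. The change was 0.10 for Ythdf3 (SE 0.2, 95% interval -0.33 to 0.53, limma adjusted p = 0.993). It was -0.12 for Ythdf1 (SE 0.453, 95% interval -1.10 to 0.85, limma adjusted p = 0.993), and without control library 1 that value turned to 0.52. Ythdf3 values were between 17.2 and 142 times those of Ythdf1, and both ends of that span were controls.

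Whether reads of such paralogues can be told apart depends on how long their identical stretches are. Aligned coding sequences of Ythdf1 and Ythdf3 were identical at 72.3% of bases, and their longest identical run was 17 bases. With Ythdf2, the third cytoplasmic reader, the longest run was 22 bases for Ythdf1 and 17 for Ythdf3, and no stretch of 50 bases in either transcript occurs in another annotated gene. The longest runs of Ythdf1 with Ythdf2 and with Ythdf3 are printed, as the longest stretches without a mismatch between Ythdf1 and each of these paralogues. The run of 17 bases between Ythdf2 and Ythdf3 is not printed. Where the transcripts are most alike was not computed. Capitals are the shared run, and lower case is 20 coding bases on each side. Each stretch lies in 1 coding exon of the GENCODE M21 annotation of GRCm38 and is given in the transcript's direction. The first pair is Ythdf1 at chr2:180911590-180911651 (minus strand) and Ythdf2 at chr4:132205083-132205144 (minus strand), and the second is Ythdf1 at chr2:180911121-180911177 (minus strand) and Ythdf3 at chr3:16204934-16204990 (plus strand).
Ythdf1: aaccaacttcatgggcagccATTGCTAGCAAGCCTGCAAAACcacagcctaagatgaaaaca
Ythdf2: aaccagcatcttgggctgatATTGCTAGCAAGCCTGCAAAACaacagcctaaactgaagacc
Ythdf1: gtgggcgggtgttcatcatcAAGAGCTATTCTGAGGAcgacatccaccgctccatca
Ythdf3: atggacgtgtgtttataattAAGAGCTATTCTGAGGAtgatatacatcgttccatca

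Ythdf2, a decay-promoting reader needed for oocyte competence, was added after its values were seen. It was at 80.5 and 60.2 in the controls and at 67.1, 77.5 and 76.3 after PNMC, with a change of 0.08 (SE 0.171, 95% interval -0.29 to 0.45, limma adjusted p = 0.993). Its values were 1.02 to 1.90 times those of Ythdf3 in the 5 libraries. Ythdf2 was above Ythdf3 in every library, and both were far above Ythdf1.

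**Figure D2:**
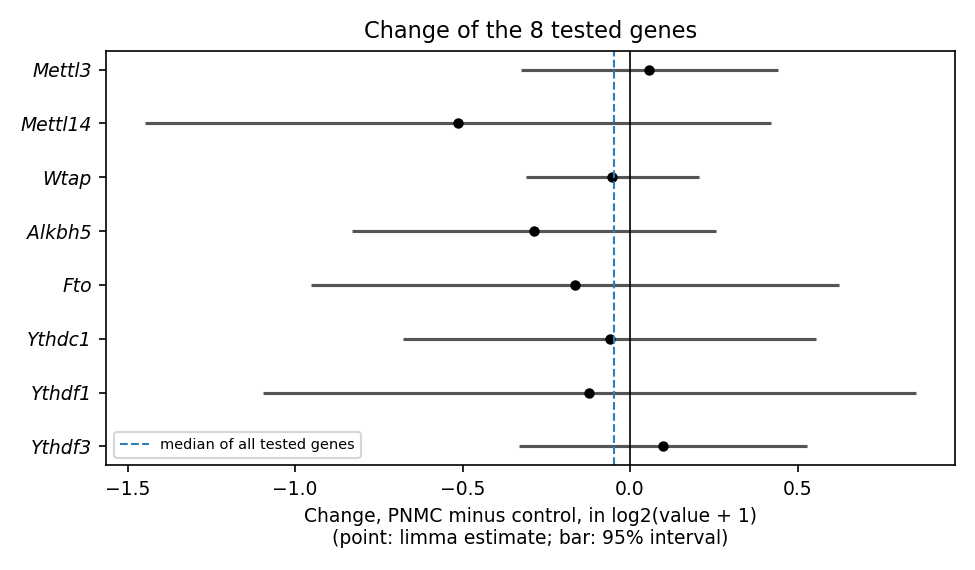
Change of the 8 tested genes (PNMC minus control in log2(value + 1), horizontal); points are limma estimates, bars are 95% intervals, and the dashed line is the median of all tested genes at -0.05. Every bar crosses 0, and the bars widen from Wtap, the highest gene, to Mettl14 and Ythdf1, the lowest tested ones.

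The intervals give the sizes of change that are still compatible with these libraries under limma's model. Its variance for a gene draws in part on other genes, as each gene alone has 3 residual degrees of freedom. Intervals from each gene's own spread were not computed. The limma intervals lay within 1 log2 unit in either direction for 6 of the 8 genes, all but Mettl14 and Ythdf1. For Wtap, Mettl3 and Ythdf3 they lay within a 1.5-fold change of value + 1 in either direction. The scale of log2(value + 1) understates changes of low genes, so the bounds for Fto, Mettl14 and Ythdf1 allow larger changes in the values themselves. The read depth is unknown and no counting interval can be given.

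The libraries also differed within each group. PNMC library 2 lay below the mean of the 5 libraries for 7 of the 9 genes, where 50.9% of all tested genes lay below in that library. PNMC library 1 lay above the mean for 7 of the 9, against 48.7% of all tested genes, and control library 2 also lay above it for 7, against 58.1%. Mettl14 and Fto were both highest in control library 2, whereas Ythdf1 was lowest there. By role, the summed value of the 3 writers was 359 ± 15.7 in the 2 controls (SD, n = 2) and 349 ± 29.2 in the 3 PNMC libraries (SD, n = 3). The 2 erasers summed to 17.99 ± 2.98 and 14.7 ± 2.42, and the 2 cytoplasmic readers to 52.3 ± 10.4 and 55.3 ± 8.71. Each of these sums overlapped between the groups.

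**Figure D3:**
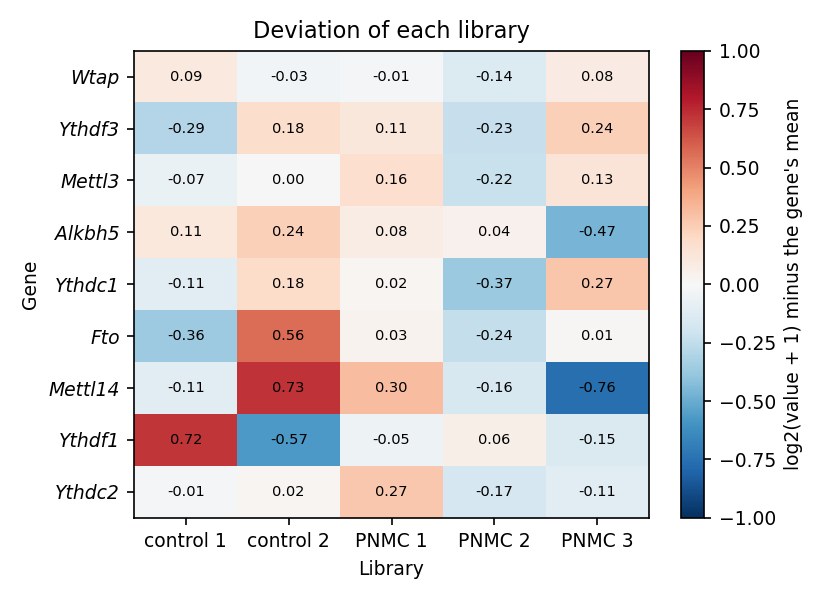
Deviation of each library (columns) from the gene's mean over the 5 libraries (rows, ordered by mean level), in log2(value + 1); red is above and blue below the mean. The blue column of PNMC library 2 covers 7 of the 9 genes, and the strongest colours are in the low genes Mettl14, Ythdf1 and Fto.

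Other genes of the pathway were read from a list of 28, all of which could be tested. None passed limma's adjusted threshold and none had an unadjusted p under 0.05. Values were lower after PNMC for 19 of the 28 and higher for 9, where 56.9% of all tested genes were lower, with a median change of -0.18, against -0.05 over all tested genes. In 9 of the 28, or 32.1%, the groups did not overlap, against 19.9% of all tested genes. All 9 lay below the controls after PNMC, where 11.9% of all tested genes did. These overlap counts used the deposited values without scaling. The median value of all tested genes was 7.09 and 7.485 in the controls and 6.911, 6.9 and 6.768 after PNMC. Whether the 9 genes stay apart after scaling was not computed. Under quantile normalisation or median scaling 17 of the 28 were lower, where 50.3% and 46.1% of all tested genes were lower. The blood and oocyte marker sums that were apart between the groups are given above, and their part in these counts was not tested.

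By role, the 5 partners of the writer complex had lower values in 4 and a median change of -0.215. Virma, the scaffold of the complex, was at 7.03 and 7.66 in the controls and at 5.90, 5.98 and 5.11 after PNMC, a change of -0.33 (SE 0.276, limma adjusted p = 0.993). Zc3h13, which holds the complex in the nucleus, was at 13.1 and 13.5 and at 9.61, 11.8 and 11.8. In both genes the groups did not overlap. The 6 other RNA adenosine methyltransferase genes and cofactors had lower values in 4, with a median of -0.23. Zcchc4, which methylates ribosomal RNA, was at 2.44 and 1.77 and at 0.885, 0.9505 and 1.68, again without overlap. Mettl4 was at 15.3 and 19.6 and at 16.2, 13.5 and 13.6, with PNMC library 1 between the controls.

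Of the 8 other readers, values were lower in 4 and higher in 4, and the median change was -0.095. Fmr1, the fragile X protein gene, was at 4.95 and 3.63 in the controls and at 2.54, 2.81 and 2.28 after PNMC. Its change of -0.57 (SE 0.33, 95% interval -1.28 to 0.14, limma adjusted p = 0.993) did not pass the test. Hnrnpa2b1, a nuclear RNA-binding protein gene, was at 175 and 141 and at 140, 131 and 134, so that control library 2 lay next to the PNMC values. All 6 partners of readers had lower values, with a median of -0.15, where 56.9% of all tested genes were lower with a median of -0.05. Among the 6, the splicing factor gene Srsf3 was at -0.05 and Meioc at -0.08 (both named after their values were seen). Cnot1, the scaffold of the deadenylase complex that YTHDF2 recruits, was at 15.9 and 15.6 and at 13.5, 11.2 and 10.9, a change of -0.39 (SE 0.231, 95% interval -0.88 to 0.11, limma adjusted p = 0.993). The exonuclease gene Xrn1 was at 9.29 and 7.12 and at 6.25, 6.71 and 6.95. For Fmr1, Hnrnpa2b1, Cnot1 and Xrn1 all PNMC values lay below both controls, by a small margin in Hnrnpa2b1 and Xrn1.

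The 3 genes of methyl donor supply had a median of 0.03. Mat2b, the regulatory subunit of S-adenosylmethionine synthetase, was at 544 and 607 in the controls and at 670, 599 and 675 after PNMC, a change of 0.17 (SE 0.107, 95% interval -0.06 to 0.40, limma adjusted p = 0.993). It was more abundant than Wtap in every library. Ahcy, which clears the product of methyl transfer, was at 1.42 and 1.68 and at 2.39, 0.279 and 0.891, with PNMC values on both sides of the controls.

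**Figure D4:**
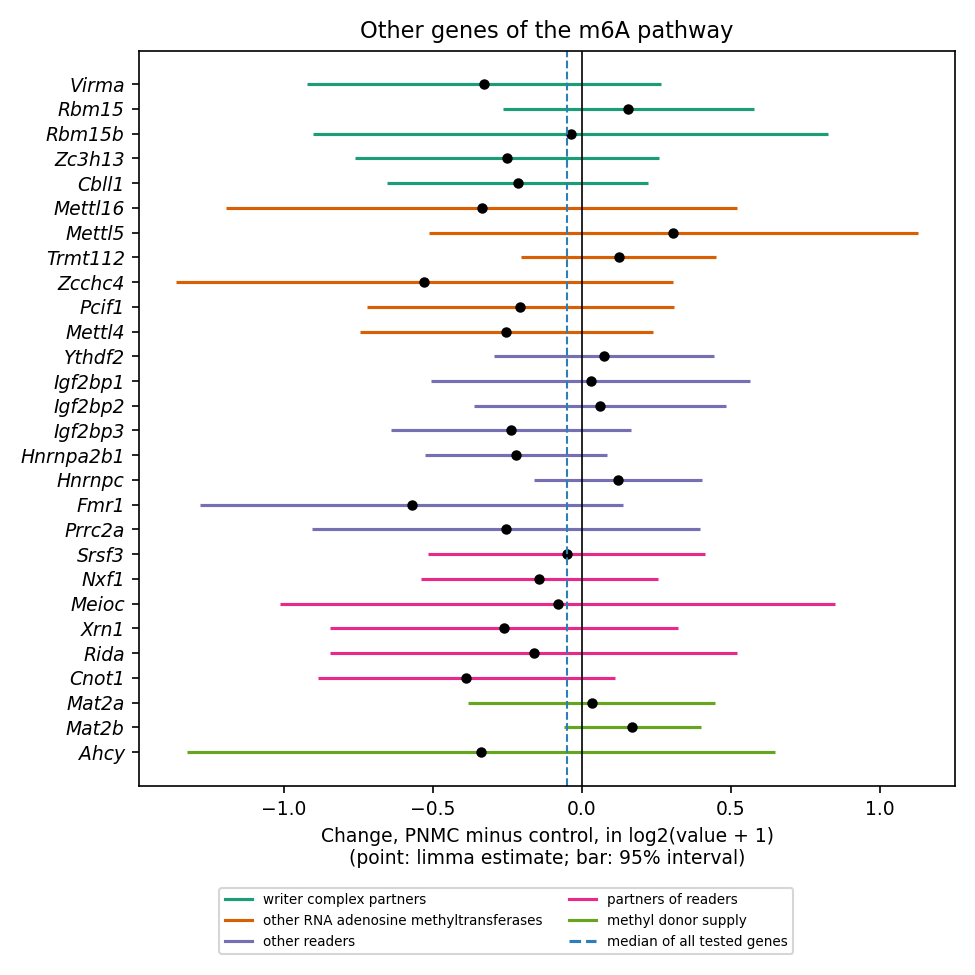
Change of the 28 other pathway genes (PNMC minus control in log2(value + 1), horizontal), coloured by role; points are limma estimates, bars are 95% intervals, and the dashed line is the median of all tested genes at -0.05. Every bar crosses 0, and 19 of the 28 points lie below 0.

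Genes with the most similar values over the 5 libraries were found for the highest writer, eraser and reader by the root mean square difference of log2(value + 1). For Wtap they were Spry4 (0.052) and Trim60 (0.0743), for Alkbh5 Dnajb12 (0.0996) and Atp5j2 (0.106), and for Ythdf3 Akirin2 (0.0766) and Gars (0.104). Akirin2, for example, was at 43.3 and 58.5 in the controls and at 52.0, 47.7 and 64.5 after PNMC. The measure takes in level as well as pattern, over 5 libraries only.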

How the data were processed

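Per the labels' protocols, TRIzol-extracted total RNA was turned into Smart-seq2 libraries. GRCm39 is the build in the submitters' processing notes, and the tools listed there, without roles, are DESeq2 1.16.1, HTSeq, HISAT2 2.0.5 and Trimmomatic. The authors deposited 1 table of a normalised signal per gene symbol and library. Neither its unit nor its annotation is stated, and low values showed no step from which reads could be recovered, so no count test was run. Columns were matched by sample title.

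The 12734 genes that reached a value of 1 in 2 or more of the 5 libraries were compared on log2(value + 1) with limma 3.58.1 (R 4.3.3), with a variance trend, robust variances and no covariate, two-sided, and p-values adjusted by Benjamini-Hochberg over all of them at 0.05. An exact permutation test of 3 against 2 libraries could not reach that threshold. Exon overlaps and shared stretches came from GENCODE M21 (GRCm38), using for each gene the transcript with the longest coding sequence. The members and lists were chosen with earlier results of these data known. Named besides the members were the 2 genes of each role with the smallest p, and the 2 most similar genes of 3 members.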

Additional observations from a re-analysis of the deposited data

How the results depend on the processing

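Every gene was refitted under 12 alternatives. No m6A gene passed an adjusted or unadjusted p of 0.05 in any of them, with a lowest unadjusted p of 0.112 and a lowest limma adjusted p of 0.893. Of 92 refitted values for the 8 genes, 78 kept their direction and 14 changed it, and the cause was not tested. With a minimum of 10 only 4 of the 8 genes could be tested, 2 of them lower, and Mettl14, Fto, Ythdc1 and Ythdf1 gave no value. At that setting 54.3% of all tested genes were lower. There 16 of the 28 other pathway genes were tested, 9 of them lower. In all, 210 genes had an unadjusted p under 0.05 at that setting, against 636 in the main fit. Fewer genes were tested there, and the share under 0.05 was not computed. Median scaling turned Wtap to 0.0327, Ythdc1 to 0.0166 and the median of all tested genes to 0.0271. Quantile normalisation turned Ythdc1 to 0.0117 and Ythdf1 to 0.00491. With 1 library left out, Mettl3 ranged from -0.013 to 0.18, Mettl14 from -0.93 to -0.10, Alkbh5 from -0.38 to -0.11, Wtap from -0.12 to 0.00874, Fto from -0.62 to 0.29, Ythdc1 from -0.21 to 0.11, Ythdf1 from -0.77 to 0.52 and Ythdf3 from -0.14 to 0.33. The number of genes past the adjusted threshold was 0 throughout, except 1 without PNMC library 1, the predicted gene Gm13103, which was outside both gene lists. Of the 28 other genes, 1 had an unadjusted p under 0.05 under median scaling (Mat2b, limma adjusted p = 0.938), 1 without trend and robust variances (Fmr1, limma adjusted p = 0.837) and 1 without control library 2 (Hnrnpa2b1, limma adjusted p = 0.893), so this count ranged from 0 to 1 with 1 library left out. The counts of lower values among the 8 and the 28 genes, and the unadjusted count for the 28, were added after the data were seen.

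Replicate numbers 1 and 2 occur in both groups, but the labels do not say that they pair libraries, and same-numbered libraries did not deviate together (correlations of -0.06 and -0.04 over tested genes). With the replicate number as a block, no gene passed, 544 genes had an unadjusted p under 0.05, the change was -0.11 for Alkbh5 and -0.24 for Mettl14, and that of Ythdf3 was -9.52e-05, the same values as without PNMC library 3, which the block leaves without a partner. Depth is unknown, so its limit on the low genes Mettl14, Ythdf1 and Ythdc2 cannot be put in reads.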
